A study of Mus musculus with 9 samples.

Results

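The tumor suppressor p53, its inhibitors and a set of its transcriptional targets were examined in long-term hematopoietic stem cells (LT-HSCs) that lacked class IA phosphatidylinositol 3-kinase (PI3K) isoforms. The set held 10 genes chosen by symbol, namely Trp53, which encodes p53, the inhibitors Mdm2 and Mdm4, and the targets Ccng1, Zmat3, Phlda3, Eda2r, Trp53inp1, Aen and Ei24. Each of the 10 had 1 row among the 47643 genes of the count table, and all 10 were among the 18205 genes with enough reads to be tested.

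The data were bulk paired-end RNA sequencing of sorted donor-derived cells, with 3 libraries from each of 3 genotypes on a C57BL/6 background. TKO cells were Pik3ca lox-lox, Pik3cb lox-lox, Pik3cd-/- and carried Mx1-Cre, an interferon-inducible recombinase that acts throughout the blood system. δKO cells had the same floxed alleles and Pik3cd-/- but no Mx1-Cre, and WT cells carried Mx1-Cre with intact PI3K genes. In every group, whole bone marrow was transplanted into lethally irradiated B6.SJL recipients of 6 to 8 weeks, and the recipients later received 2 injections of 250 μg of the interferon inducer pIpC 48 hours apart. Marrow was harvested 4 weeks after pIpC, pooled from 7 recipients per group and sorted as Lin-cKit+Sca1+Flk2-CD48-CD150+. Donor mice were described both as 4 to 6 and as 6 to 8 weeks old. The labels do not say whether the 3 libraries of a group came from separate pools, so p-values measure the spread between libraries, which may be technical. Only the δKO cells were without Mx1-Cre, so loss of P110α and P110β and the presence of Cre cannot be told apart in TKO against δKO, nor loss of P110δ and the absence of Cre in δKO against WT. One δKO library carried a column name whose number differs from its label, and it is called the unnumbered δKO library here.

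In unstressed cells p53 is kept scarce by MDM2, a ubiquitin ligase that marks it for destruction, and by MDM4, a relative that blocks its activating domain. DNA damage, ribosome defects or oncogenic signals free p53, which then switches on genes of cell cycle arrest, DNA repair, metabolism and apoptosis, and also Mdm2 itself, which closes a feedback loop. AKT, the kinase downstream of PI3K, phosphorylates MDM2 and favors its entry into the nucleus. In HSCs, p53 is known for keeping the cells quiescent and for removing damaged ones. Much of this control acts on the protein, and the levels given here are of mRNA.

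p53 binds pairs of a short motif, the p53 half-site, and the promoters of the set are shown first because the targets are defined by that binding. RefSeq promoter windows of the GRCm38.p6 build, which ran from 250 bases before to 50 bases after a gene start, were found for 8 of the 10 genes, and for Zmat3 and Trp53inp1 none was used. An exact half-site of 10 bases was present in 5 of the 8, namely Trp53, Mdm2, Ccng1, Aen and Ei24, and in 8.36% of all 32851 windows. The half-site pattern allows several bases at most positions and is the same on both strands, though a given match need not be. In the sequences below, written 5′ to 3′ on the strand of the gene, capitals mark the half-site in Trp53, Mdm2, Aen and Ei24, and a pair of adjoining half-sites in Ccng1 and in Cdkn1a, the best-known target, which is shown for comparison.
Trp53: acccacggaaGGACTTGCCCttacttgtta
Mdm2: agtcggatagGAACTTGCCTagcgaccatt
Aen: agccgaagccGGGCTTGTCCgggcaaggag
Ei24: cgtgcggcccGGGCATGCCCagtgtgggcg
Ccng1: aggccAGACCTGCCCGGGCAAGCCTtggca
Cdkn1a: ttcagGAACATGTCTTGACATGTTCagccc
These stretches lie at chr11:69580274-69580303 on the plus strand for Trp53, chr10:117710925-117710954 on the minus strand for Mdm2 and chr7:78895927-78895956 on the plus strand for Aen. Those of Ei24 and Ccng1 lie on the minus strand at chr9:36797325-36797354 and chr11:40755457-40755486, and that of Cdkn1a lies on the plus strand at chr17:29090923-29090952. The 20 capitals of Ccng1 and of Cdkn1a each departed from the paired motif at 1 base, and 20 adjoining bases with at most 1 such mismatch were found in 0.0883% of all windows. A match describes letters and is no evidence of binding, and the windows of Mdm4, Phlda3 and Eda2r held no exact half-site. Another Cdkn1a window, at chr17:29093519-29093818, held none either.

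Sequencing gave between 31300343 and 60386097 counts per library, and levels are given as CPM, which are counts relative to a TMM-scaled library size. Each of 10 LT-HSC markers, among them Kit, Mecom and Hlf, was detected in all 9 libraries. Both markers that the sort gates out were also detected in all 9, Flt3, which encodes Flk2, at 7.06 to 115 CPM and Cd48 at 5.82 to 23.2 CPM. Their sum was 50.1 to 133 CPM in WT, 12.9 to 76.3 CPM in δKO and 26.3 to 49.0 CPM in TKO, and Cd48 was at 18.3 to 23.2 CPM in WT and 9.66 to 14.0 CPM in TKO, so that TKO was lower without overlap. Of 6 T cell markers, Cd3e and Cd3g were at 0 throughout and the other 4 were not, with the highest value, 51.4 CPM of Lck, in δKO 1, and the summed level was 5.54 to 10.9 CPM in WT, 1.03 to 51.6 CPM in δKO and 6.7 to 19.9 CPM in TKO. The library δKO 1 stood apart, with 18180 genes detected against 18500 to 22703 in the others and the highest summed LT-HSC marker level, 2750 CPM against 1240 to 2120 CPM. The 10 neutrophil granule markers summed to 4940 to 11700 CPM in WT, 262 to 11500 CPM in δKO and 153 to 3000 CPM in TKO, so that TKO was below WT without overlap. Mpo was the highest of them in every library but WT 3, where Ngp was. Of the 10, S100a8, Ngp and Camp were lower in TKO than in WT without overlap, and the other 7, Mpo and Elane among them, overlapped. The HSC marker sums were 1270 to 1510 CPM in WT and 1830 to 2120 CPM in TKO. The part of these differences in any result below was not tested, and in bulk libraries a change in the share of a cell type and a change in RNA per cell cannot be told apart. The deleted region was not resolved by gene-level counts, and Pik3cb was at 44.6 to 63.6 CPM in WT and 25.5 to 33.9 CPM in TKO, a log2 difference of -0.86 that was not called by edgeR (adjusted p = 0.9996). Pik3cd was at 98.2 to 138.6 CPM in WT, 38.5 to 91.2 CPM in δKO and 71.2 to 73.5 CPM in TKO, and Pik3ca differed by 0.08 on the log2 scale between TKO and WT.

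None of the 10 genes differed between genotypes at an adjusted p under 0.05 in the edgeR quasi-likelihood test across all genes, and none had an unadjusted p under 0.05 in any of the 3 comparisons. The background of such calls was low. In TKO against WT, 0.00549% of all genes were called, which is 1 gene, and 1.68% were higher and 2.5% lower at an unadjusted p under 0.05. In TKO against δKO, 0% were called, with 4.6% higher and 5.56% lower at an unadjusted p under 0.05. In δKO against WT the shares were 0.00549% called, 3.65% higher and 3.36% lower. DESeq2 called none of the 10 genes either, whereas it called 0.657% of all genes in TKO against WT, 3.29% in TKO against δKO and 1.05% in δKO against WT. With counts simulated from these libraries, the edgeR test of TKO against WT found 48 of 200 genes changed by 4-fold and 119 of 200 changed by 16-fold among 18205 genes, so smaller differences could pass unseen. The 3 comparisons share libraries and are not independent of each other.

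The group means of Trp53, Mdm2 and Mdm4 lay close together. Trp53 (chr11:69580359-69591873, plus strand, GRCm38) was at 306, 246 and 232 CPM in WT, at 223, 277 and 286 CPM in δKO and at 299, 329 and 235 CPM in TKO. The 3 groups overlapped, and the lowest and highest libraries were δKO 1 and TKO 2. Between TKO and WT the log2 difference of Trp53 was 0.14 (SE 0.225, edgeR adjusted p = 0.9996), with a 95% confidence interval from -0.355 to 0.629. It was 0.028 without TKO 2 and 0.27 without TKO 3.

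Mdm2 (chr10:117688875-117710758, minus strand), both the inhibitor and a target of p53, was at 142, 134 and 159 CPM in WT and at 145, 131 and 148 CPM in TKO. In δKO it was at 239 CPM in δKO 1, 127 CPM in δKO 2 and 155 CPM in the unnumbered library, so that 1 library stood above all others. The mean Mdm2 level was 145.0 ± 12.7 CPM in WT, 174 ± 58.4 CPM in δKO and 142 ± 9.09 CPM in TKO (SD, n = 3). TKO and δKO differed by -0.30 on the log2 scale (SE 0.260, edgeR adjusted p = 0.717), a value that was 0.0023 without δKO 1. Against WT, the log2 difference of Mdm2 in TKO was -0.04, with a 95% confidence interval from -0.603 to 0.532.

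Mdm4 (chr1:132959484-133030561, minus strand), the noncatalytic inhibitor, was at 290, 341 and 276 CPM in WT, 360, 296 and 234 CPM in δKO and 280, 287 and 327 CPM in TKO. Its group means were within a narrow band, at 303 ± 34.5, 297 ± 63.2 and 298 ± 25.4 CPM (SD, n = 3), and the log2 differences from WT were -0.02 in TKO and -0.03 in δKO. For Trp53, Mdm2 and Mdm4, the 95% confidence intervals of all 3 comparisons lay within 1 log2 unit of 0, so that a 2-fold difference in mRNA lay outside them.

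**Figure D1:**
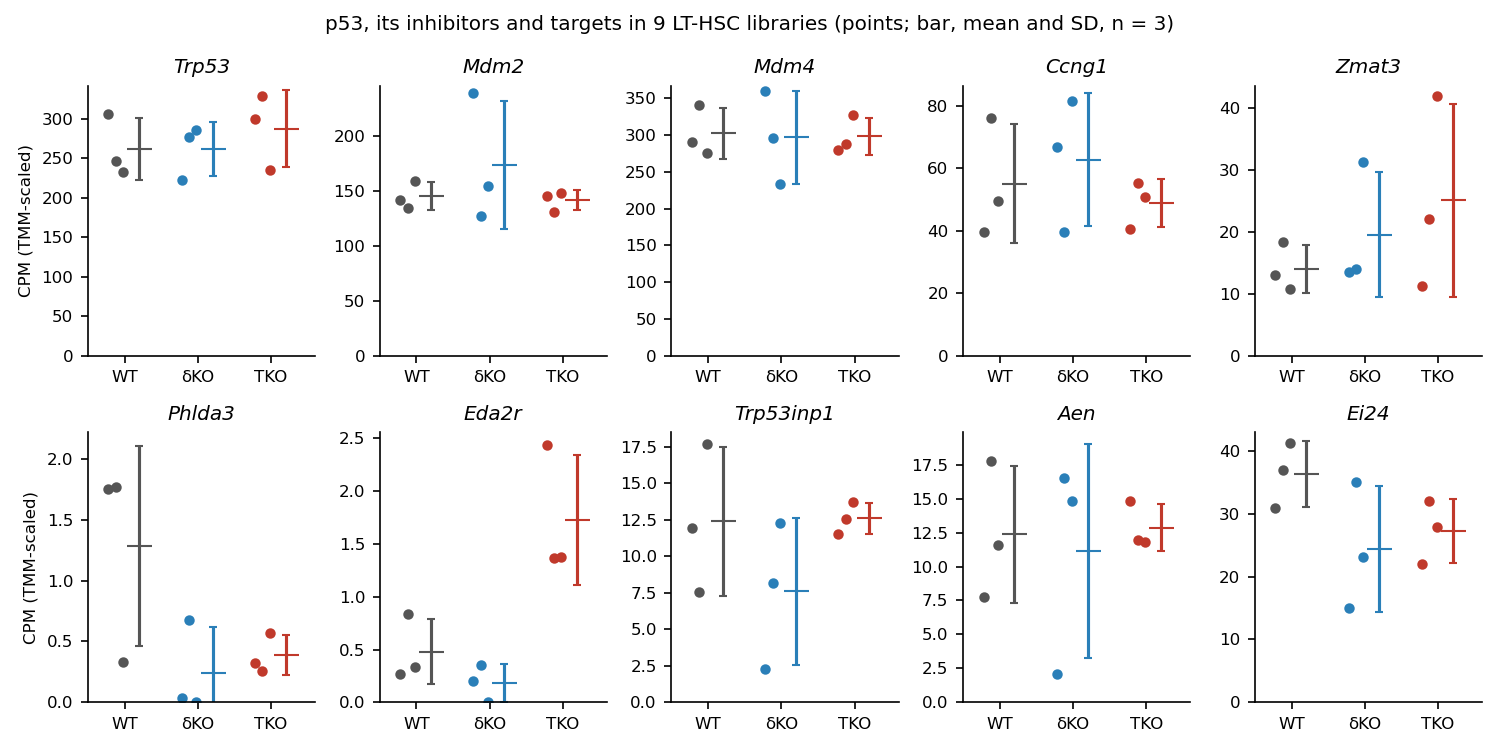
Level of each of the 10 genes (vertical axis, TMM-scaled CPM from 0) in WT, δKO and TKO libraries (points), with the mean and SD (bars, n = 3, ending at the axis where they would pass below 0). Libraries of the 3 genotypes overlap for every gene but Eda2r, where the 3 TKO libraries lie at 1.37 to 2.43 CPM and all others at or below 0.835 CPM.

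Among the targets, Ccng1 (chr11:40748552-40755311, minus strand), which encodes cyclin G1 and whose promoter held the paired motif shown above, was at 39.7, 76.1 and 49.4 CPM in WT, 66.7, 39.7 and 81.5 CPM in δKO and 40.5, 55.3 and 50.8 CPM in TKO. The TKO libraries lay inside the range of both other groups. The log2 difference of Ccng1 was -0.17 for TKO against WT (SE 0.351) and -0.36 for TKO against δKO (SE 0.352, edgeR adjusted p = 0.752). The latter was -0.12 without the unnumbered δKO library and -0.61 without δKO 2.

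Zmat3 (chr3:32334792-32366014, minus strand), an RNA-binding regulator of splicing and mRNA decay, was at 13.0, 18.4 and 10.8 CPM in WT, 13.5, 13.9 and 31.2 CPM in δKO and 11.3, 22.1 and 41.9 CPM in TKO. High and low libraries were present in both mutant groups. The log2 difference between TKO and WT was 0.84 (SE 0.559, edgeR adjusted p = 0.9996), and it was 0.25 without TKO 3. Zmat3 lies 31.7 kb from the targeted gene Pik3ca on the same chromosome, and Pik3ca was at 68.0, 52.8 and 59.9 CPM in the 3 TKO libraries.

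Ei24 (chr9:36779159-36797393, minus strand), a membrane protein of the endoplasmic reticulum linked to autophagy and apoptosis, was at 30.9, 36.9 and 41.2 CPM in WT, 14.96, 34.98 and 23.2 CPM in δKO and 21.9, 32.0 and 27.9 CPM in TKO. Both mutant groups had lower means than WT, with overlap in each case. The log2 differences from WT were -0.58 in δKO (SE 0.388) and -0.41 in TKO (SE 0.387), and neither was called (edgeR adjusted p = 0.754 and 0.9996). That of δKO was -0.32 without δKO 1 and -0.92 without δKO 2. Of its exon bases, 6.66% are shared with Gm26787 on the opposite strand, and reads there could not be assigned to 1 gene if counting ignored strand, which is not given in the sources used here. The other 9 genes share no exon base with another gene in the annotation.

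Trp53inp1 (chr4:11156431-11174379, plus strand), a stress-induced protein active in autophagy and apoptosis, was at 11.96, 7.57 and 17.7 CPM in WT, 2.31, 8.19 and 12.3 CPM in δKO and 11.6, 12.6 and 13.7 CPM in TKO. Aen (chr7:78895854-78911209, plus strand), a nuclease that acts in p53-dependent apoptosis, was at 7.74, 17.8 and 11.6 CPM in WT, 2.11, 16.5 and 14.8 CPM in δKO and 14.8, 11.9 and 11.8 CPM in TKO. For both genes the lowest library was δKO 1, and the TKO libraries were tightly grouped within the WT range. The log2 difference between TKO and δKO was 0.73 for Trp53inp1 (SE 0.652, edgeR adjusted p = 0.721) and 0.20 for Aen (SE 0.696, edgeR adjusted p = 0.943), and without δKO 1 they were 0.30 and -0.29.

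The library δKO 1 thus held the highest Mdm2 and Mdm4 levels and the lowest Trp53, Aen, Trp53inp1 and Ei24 levels of the 9. Relative to the mean of 9 libraries, it was at 0.67 for Mdm2, -2.31 for Aen, -2.04 for Trp53inp1 and -0.91 for Ei24 on the log2 CPM scale. In the remaining libraries these 4 genes lay between -0.46 and 0.87 of their means.

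**Figure D2:**
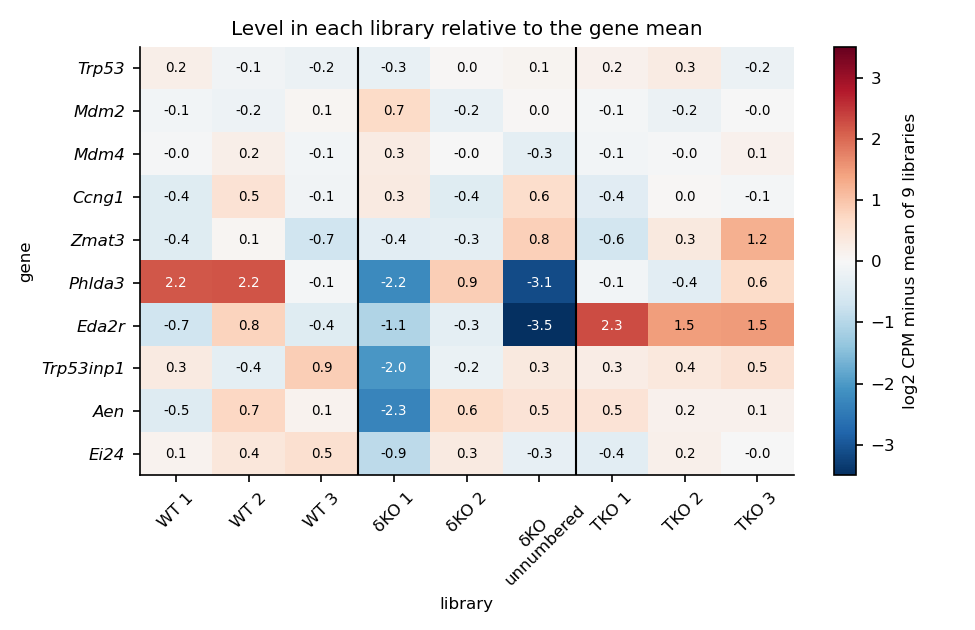
Log2 CPM of each gene minus its mean over the 9 libraries (color and printed value), with genes in rows and libraries in columns, and black lines between WT, δKO and TKO. The column of δKO 1 holds the lowest values of Aen (-2.31) and Trp53inp1 (-2.04), and Eda2r is above its mean in all 3 TKO libraries.

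The 2 remaining targets had the fewest reads, with at most 127 in a library. Phlda3 (chr1:135766119-135769136, plus strand), which encodes a competitor of AKT for membrane lipids, was at 1.75, 1.76 and 0.334 CPM in WT, 0.0399, 0.677 and 0 CPM in δKO and 0.325, 0.262 and 0.572 CPM in TKO. In WT, 2 libraries stood above the rest and the third was within the TKO range. A count of 3 corresponded to 0.0504 to 0.12 CPM among the libraries, so that δKO 1 and the unnumbered δKO library were below it. The log2 difference of Phlda3 was -1.72 for TKO against WT (SE 1.571, edgeR adjusted p = 0.9996) and -2.37 for δKO against WT (SE 1.608, edgeR adjusted p = 0.754). The latter value was -5.84 without δKO 2, the only δKO library with more than 3 counts.

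Eda2r (chrX:97333840-97377216, minus strand), a receptor of the tumor necrosis factor family that binds ectodysplasin A2, was the only gene of the set with groups that did not overlap. It was at 0.269, 0.835 and 0.334 CPM in WT, 0.1995, 0.356 and 0 CPM in δKO and 2.43, 1.37 and 1.38 CPM in TKO, with 0 to 127 reads per library. All 3 TKO libraries were above all 6 others. Among all genes, 6.88% were higher without overlap in TKO than in WT and 6.98% in TKO than in δKO, and 7.47% and 4.74% were lower, so that 1 gene of 10 is near the background. In δKO against WT, where no member of the set was without overlap, the shares were 4.13% higher and 7.39% lower. The log2 difference of Eda2r was 1.84 for TKO against WT (SE 1.384, edgeR adjusted p = 0.9996) and 3.17 for TKO against δKO (SE 1.465, edgeR adjusted p = 0.4895, unadjusted p = 0.0519), with a 95% confidence interval of the latter from -0.0294 to 6.38. It was 2.61 without the unnumbered δKO library, which had no read of the gene, and 4.08 without δKO 2. In DESeq2 the adjusted p of TKO against δKO was 0.0549. The summed neutrophil granule markers were also without overlap between TKO and WT, in the opposite direction, and the summed LT-HSC markers in the same direction. The part of either in the difference was not tested.

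**Figure D3:**
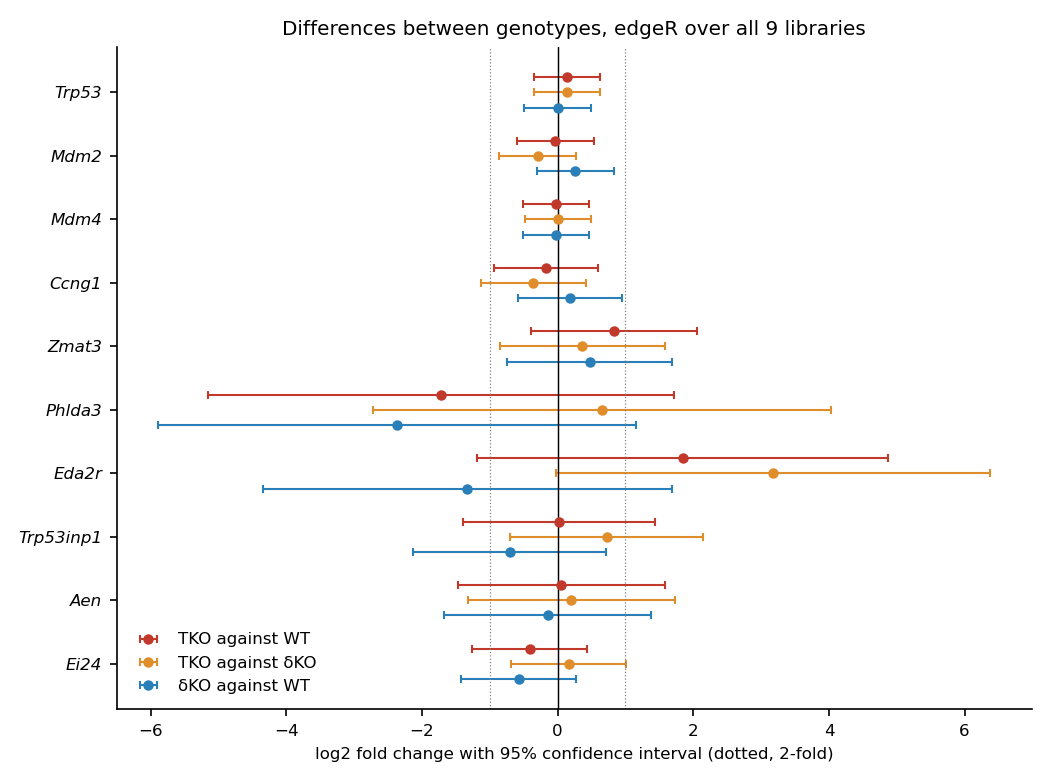
Log2 fold change (horizontal axis) of the 10 genes in the 3 comparisons of genotypes (points by color) from edgeR, with 95% confidence intervals (bars) and dotted lines at 2-fold. All intervals cross 0, those of Trp53, Mdm2 and Mdm4 stay within 2-fold, and the widest belong to Phlda3 and Eda2r.

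Relative to WT, 5 of the 10 genes were higher in TKO and 5 were lower, with a median log2 difference of 0.0008, beside 48.8% lower and a median of 0.02 over all genes. Between TKO and δKO, 8 were higher and 2 lower with a median of 0.18, beside 52.8% lower and a median of -0.06 over all genes, and without δKO 1 the counts were 7 and 3 with a median of 0.09, beside 46.4% lower and a median of 0.07 over all genes. Between δKO and WT, 4 were higher and 6 lower with a median of -0.09, beside 47.2% lower and a median of 0.05 over all genes. Under other scalings Mdm4 turned to lower in TKO than in δKO, and Trp53 and Ccng1 turned to lower in δKO than in WT. Upper-quartile scaling moved the median of all genes in δKO against WT from 0.05 to -0.10, so directions of this size depend on the scale.

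Compared per kilobase of exon, the levels spanned a wide range. The length used was that of all annotated exons of a gene combined, 14798 bases for Mdm4 and 5083 for Mdm2, so the order depends on the annotation. Before this division Mdm4 was above Mdm2, at a mean of 299 against 153 CPM. Trp53 was highest at 66.8 ± 9.34 CPM per kb (SD over 9 libraries), followed by Mdm2 at 30.2 ± 6.66 and Mdm4 at 20.2 ± 2.59, and the ranges of these 3 did not overlap. Ccng1 followed at 15.8 ± 4.52 CPM per kb and overlapped with Mdm4. Ei24 was at 6.02 ± 1.69 CPM per kb, without overlap with Ccng1 above it and, by a margin of 3.07 to 3.06, with Aen below it. It did overlap with Zmat3, whose highest library was at 3.66 CPM per kb. Aen, Zmat3 and Trp53inp1 were at 2.09, 1.71 and 1.68 CPM per kb and were not separated from their neighbors in that order. Phlda3 and Eda2r were lowest at 0.408 and 0.135 CPM per kb, and their ranges overlapped with each other.

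By the correlation of log2 CPM over the 9 libraries among 10774 genes averaging 5 CPM or more, the genes most like Trp53 were Pmpca, a subunit of the mitochondrial processing peptidase (r = 0.954), the mitochondrial fusion GTPase Mfn2 (r = 0.933) and the translation initiation subunit Eif3f (r = 0.925). Those most like Mdm2 were Cenpx (r = 0.98), the leukocyte phosphatase Ptprc (r = 0.975) and the myosin chaperone Unc45a (r = 0.974). Without δKO 1 these were 0.903 to 0.952 for Trp53 and 0.823 to 0.873 for Mdm2. The values describe libraries that share depth and scaling, and the highest of many were picked.

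Other genes of the pathway were read from lists by role. The 15 tested genes in the list of upstream kinases and activators included Atm, Chek2 and the ribosomal proteins Rpl5 and Rpl11 that hold MDM2 in check. They also included Ppp1r13l, which is an inhibitor of p53. None of the 15 was called in any comparison by edgeR or DESeq2. At an unadjusted p under 0.05, 1 was higher in TKO than in WT and none passed in the other comparisons. That gene was Ppp1r13b, an enhancer of p53-driven apoptosis, at 32.6, 46.3 and 44.5 CPM in WT and 83.5, 52.3 and 65.8 CPM in TKO (log2 difference 0.71, SE 0.312, edgeR adjusted p = 0.9996). None of 10 ubiquitin and phosphatase regulators, such as Ppm1d, Usp7 and Cop1, had an unadjusted p under 0.05 in any comparison. Cdkn2a, which encodes the MDM2 antagonist ARF beside p16, and the p53 relatives Trp63 and Trp73 had too few reads to be tested.

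Among 46 further targets in lists of arrest, apoptosis, repair and metabolism, the last of which also held targets with other roles, none was called by edgeR in any comparison. In TKO against WT, 23 were higher and 23 lower with a median log2 difference of -0.02, and 1 was higher and 2 lower at an unadjusted p under 0.05. Without δKO 1 the latter counts were 2 and 4, beside 3.33% higher and 4.28% lower over all genes in that fit. In TKO against δKO, 22 were higher and 24 lower with a median of -0.07, and 5 were higher and 4 lower at that threshold, which became 2 and 5 without δKO 1, beside 5.49% higher and 6.7% lower over all genes in that fit. In δKO against WT, 23 were higher and 23 lower with a median of 0.01, and 1 passed in each direction. Those passing were 1 higher and 2 lower without δKO 1, beside 2.91% and 2.74% of all genes in that fit. Without δKO 1, TKO exceeded δKO for 26 of these genes and was below it for 20 (median 0.07), and δKO exceeded WT for 19 and was below it for 27 (median -0.18). Over all genes in that fit, 46.4% were lower in TKO against δKO (median 0.07) and 53% in δKO against WT (median -0.05). DESeq2 called 2 higher and 1 lower in TKO against δKO and none in the other comparisons.

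Cdkn1a, which encodes the cell cycle inhibitor p21 and is the classical target, was at 59.7, 13.1 and 59.1 CPM in WT, 37.0, 11.7 and 43.6 CPM in δKO and 16.8, 21.5 and 39.4 CPM in TKO. The lowest libraries of WT and δKO were below all TKO libraries, and the log2 difference between TKO and WT was -0.76 (SE 0.619, edgeR adjusted p = 0.9996). None of the 10 arrest targets had an unadjusted p under 0.05 in any comparison.

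Of the apoptosis targets, Bax, the mitochondrial pore former, was at 7.89, 5.46 and 11.3 CPM in WT and 1.42, 21.5 and 4.73 CPM in TKO, and Bbc3, which encodes PUMA, was at 8.52, 7.23 and 18.9 CPM in WT and 23.98, 16.7 and 14.7 CPM in TKO. Both overlapped between the groups, with log2 differences of 0.16 (SE 1.016) and 0.67 (SE 0.647). Pmaip1, which encodes the BCL2 antagonist NOXA, was at 6.5, 3.95 and 3.3 CPM in WT, 0.0399, 3.03 and 9.11 CPM in δKO and 0.249, 0.203 and 0.636 CPM in TKO. The TKO libraries were all below the WT libraries but not below δKO 1. The log2 difference of Pmaip1 was -3.65 between TKO and WT (SE 1.413, unadjusted p = 0.0247, edgeR adjusted p = 0.9996). Apaf1, the scaffold of the apoptosome, was at 149, 80.0 and 131 CPM in δKO and 64.5, 55.6 and 73.0 CPM in TKO (log2 difference -0.90, SE 0.310, edgeR adjusted p = 0.4645).

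In the repair list, 2 translesion DNA polymerases lay at opposite ends of TKO against δKO. Polk was at 24.8, 16.2 and 21.9 CPM in WT, 9.33, 14.8 and 9.62 CPM in δKO and 35.7, 47.7 and 19.4 CPM in TKO. Polh was at 30.4, 33.4 and 24.7 CPM in WT, 56.1, 36.7 and 45.5 CPM in δKO and 12.01, 8.95 and 25.2 CPM in TKO. For each gene the δKO and TKO libraries did not overlap, and WT overlapped with TKO. The log2 differences between TKO and δKO were 1.61 for Polk (SE 0.452, edgeR adjusted p = 0.4645, DESeq2 adjusted p = 0.0103) and -1.58 for Polh (SE 0.432, edgeR adjusted p = 0.4645, DESeq2 adjusted p = 0.0211), so the call depended on the test.

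In the metabolism list, Gpx1, a glutathione peroxidase, was at 571, 618 and 754 CPM in δKO and 247, 560 and 278 CPM in TKO (log2 difference -0.84, SE 0.302, edgeR adjusted p = 0.4645). The lipase Abhd4 was at 23.2, 21.7 and 18.6 CPM in WT and 31.1, 51.5 and 37.9 CPM in TKO, without overlap (log2 difference 0.92, SE 0.381, edgeR adjusted p = 0.9996). Ephx1, an epoxide hydrolase, was at 1.97, 0.171 and 1.62 CPM in WT, 0.0399, 0.285 and 0.147 CPM in δKO and 1.07, 4.42 and 1.02 CPM in TKO. The log2 difference of Ephx1 between TKO and δKO was 3.73 (SE 1.412, edgeR adjusted p = 0.4645, DESeq2 adjusted p = 0.0347). WT overlapped with both other groups, with a log2 difference of 0.79 for TKO against WT, and δKO 1 was below the level of 3 counts. In δKO against WT, the genes with the smallest p were Gls2, at 0 to 0.0178 CPM in δKO and 0.168 to 0.979 CPM in WT, and Ak1, at 26.3 CPM in δKO 1 but 0.766 and 0.0369 CPM in the other δKO libraries.

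Gfi1, a repressor that acts downstream of p53 in HSC quiescence, was at 51.3, 33.8 and 24.7 CPM in WT, 4.19, 37.1 and 76.9 CPM in δKO and 4.32, 30.1 and 6.25 CPM in TKO. Ndn, another such gene, was at or below 2.03 CPM in every library. Neither had an unadjusted p under 0.05 in any comparison.

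The last list held 12 cell cycle genes that are silenced when p53 acts through p21 and the DREAM complex. In TKO, 11 of the 12 were lower than in WT, with a median log2 difference of -0.60, beside 48.8% of all genes. Relative to δKO, 12 of 12 were lower in TKO, with a median of -0.67, beside 52.8% of all genes. Without δKO 1 the latter were 11 of 12 with a median of -0.79, beside 46.4% of all genes in that fit. Relative to WT, 9 of the 12 were higher and 3 lower in δKO, with a median of 0.18. None was called by edgeR in any comparison. At an unadjusted p under 0.05, 3 were lower in TKO than in WT and 4 were lower in TKO than in δKO. Without δKO 1 these were 5 and 7, beside 4.28% and 6.7% of all genes in that fit. DESeq2 called 1 of them in TKO against WT and 2 in TKO against δKO. Plk1, a mitotic kinase, was at 121.8, 72.6 and 68.5 CPM in WT, 104.6, 98.7 and 163 CPM in δKO and 36.7, 32.1 and 34.9 CPM in TKO, with a log2 difference from WT of -1.34 (SE 0.311, edgeR adjusted p = 0.9996, DESeq2 adjusted p = 0.0287). Between TKO and δKO the log2 difference of Plk1 was -1.82 (SE 0.316, edgeR adjusted p = 0.4645, DESeq2 adjusted p = 8.9e-05). Ccnb2 differed from WT by -0.98 (SE 0.291), and Ccnb1 differed from δKO by -1.43 (SE 0.383, DESeq2 adjusted p = 0.0232). These genes follow the share of dividing cells as well as p53, and Cdkn1a and Trp53 had the values given above. The gated-out marker Cd48 and the summed neutrophil granule markers were also lower in TKO than in WT, as given above. Whether p53 or such cells have a part in these levels was not tested.

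**Figure D4:**
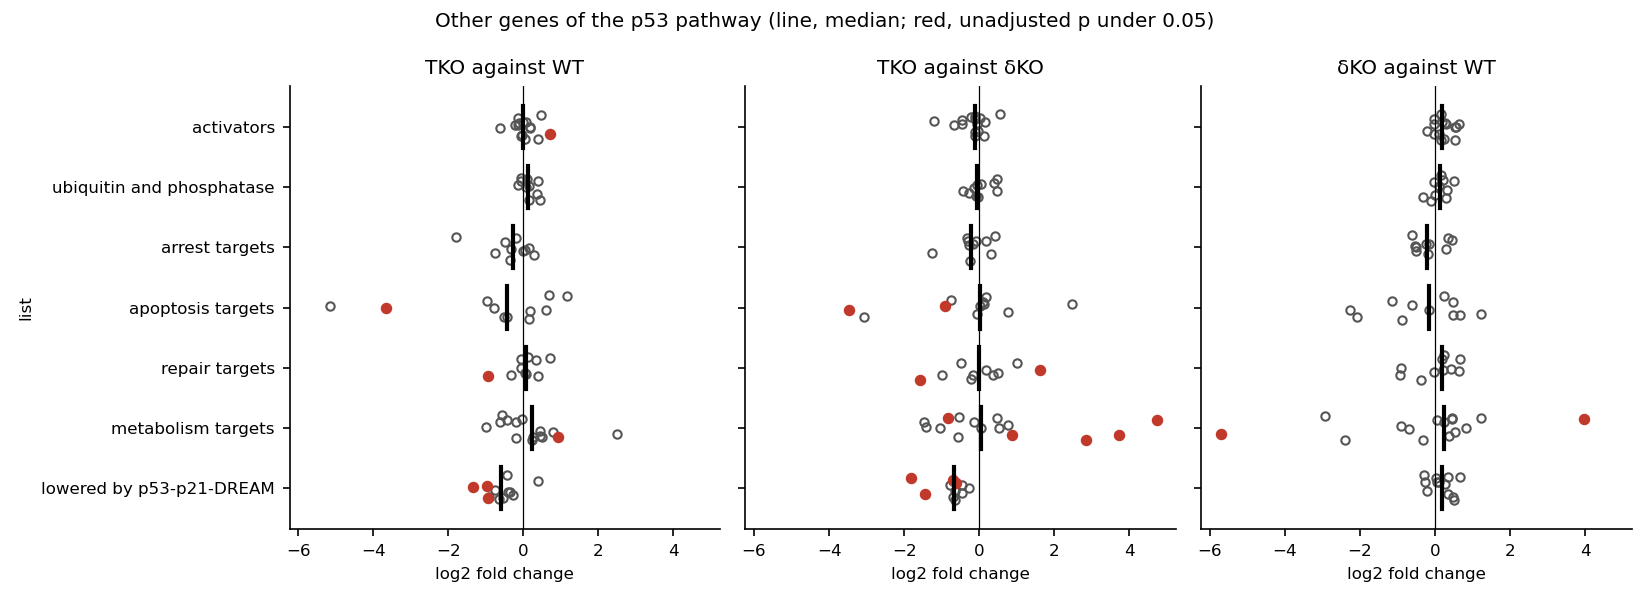
Log2 fold change (horizontal axis) of the tested genes in 7 lists (rows) in each of the 3 comparisons (panels). Lines mark medians and red points an unadjusted p under 0.05. Medians of the regulator and target lists lie between -0.43 and 0.24, and the list lowered by p53-p21-DREAM lies at -0.60 and -0.67 in the comparisons of TKO.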

How the data were processed

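Per the labels and the study's methods, the authors amplified cDNA from sorted LT-HSCs with the Ovation RNA-Seq System V2, trimmed reads with Trim Galore 0.3.7, checked them with FastQC 0.11.4, aligned them to mm10 and obtained read counts per gene with STAR 2.5.1b. The deposited raw counts were used as they stand, and the authors' normalized table was not used. Of 47643 gene identifiers, 47224 matched GENCODE M21 without the version number.

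Genes were kept by filterByExpr of edgeR 4.0.16 (minimum count 10, minimum total 15, 18205 genes), scaled by TMM, and fitted with the quasi-likelihood test on all 9 libraries with 1 mean per genotype and 6 residual degrees of freedom in R 4.3.3. P-values were two-sided and adjusted by Benjamini-Hochberg over all genes tested, with calls at 0.05, and 95% intervals used the moderated degrees of freedom. DESeq2 1.42.0 was the alternative. Limits of 3 counts cover counting error only. The test was checked on simulated counts.

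The genes and lists were chosen with earlier results of these data known. Named genes were the 10 of the set, Cdkn1a, Bax and Bbc3, the targeted genes, at most 2 genes per p53 list and comparison with the smallest unadjusted p under 0.05, and the 3 genes most like Trp53 and Mdm2. Gfi1 and Ndn, and list members given as examples of a role, were named besides. No pair of libraries of a genotype agreed within counting noise (chi-square per gene 134 to 674), so none was treated as 1 library deposited more than once. This does not tell separate pools from splits of 1 pool. The other alternatives were RLE and upper-quartile scaling, no filter, only the 2 groups compared, a replicate block, genes detected as a covariate and each library left out. Leaving out δKO 1 for the lists was added after seeing the data.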

Additional observations from a re-analysis of the deposited data

How the results depend on the processing

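None of the 10 genes was called in any of the 3 comparisons under any of the 16 alternatives, and 14 of the 30 log2 differences kept their sign throughout, among them all 6 of Eda2r and Phlda3. The lowest adjusted p over the alternatives was 0.0549, that of Eda2r in TKO against δKO in DESeq2. Over all genes, DESeq2 called 125 in TKO against WT, 582 in TKO against δKO and 191 in δKO against WT, and fits with only the 2 groups compared called 9 in the first and 0 in the last. Leaving out 1 library gave 1 to 4 genes called in TKO against WT, with 4 without δKO 1.

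In TKO against δKO, the log2 difference of Mdm4 was -0.011 with RLE scaling, -0.0096 in DESeq2 and -0.018 with genes detected as a covariate, a setting under which Aen was at -0.069 and Ei24 at -0.0020. In δKO against WT, Trp53 was at -0.14 with upper-quartile scaling, -0.00083 without the filter, -0.0040 with only 2 groups and -0.088 with the covariate, and Ccng1 was at -0.0026 with upper-quartile scaling and -0.25 with the covariate. With the covariate, Mdm2 was at -0.010, Mdm4 at 0.0080 and Aen at 0.37. These differences from the values in the report are sign changes of small values, and their cause was not tested.

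The replicate numbers did not pair the libraries, since deviations of the 7 same-numbered pairs correlated at -0.036 to 0.083. The replicate block changed no call of the 10 genes, and under it Mdm4 was at -0.14 in TKO against δKO and 0.12 in δKO against WT, where Trp53 was at -0.18 and Ccng1 at -0.011.

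With 1 library left out, log2 differences that changed sign ranged as follows. In TKO against WT, Mdm2 ranged from -0.091 to 0.033, Mdm4 from -0.091 to 0.071, Ccng1 from -0.36 to 0.13, Trp53inp1 from -0.24 to 0.37 and Aen from -0.19 to 0.41. In TKO against δKO, Mdm2 ranged from -0.48 to 0.0023, Mdm4 from -0.14 to 0.17, Zmat3 from -0.23 to 0.87, Aen from -0.29 to 0.59 and Ei24 from -0.10 to 0.51. In δKO against WT, Trp53 ranged from -0.077 to 0.13, Mdm2 from -0.041 to 0.45, Mdm4 from -0.19 to 0.12, Ccng1 from -0.053 to 0.49, Zmat3 from -0.036 to 0.71 and Aen from -0.54 to 0.34. The other values kept their sign. In TKO against WT, Trp53 ranged from 0.028 to 0.27, Zmat3 from 0.25 to 1.19, Phlda3 from -2.18 to -1.43, Eda2r from 1.51 to 2.502 and Ei24 from -0.55 to -0.28. In TKO against δKO, Trp53 ranged from 0.026 to 0.26, Ccng1 from -0.61 to -0.12, Phlda3 from 0.083 to 4.11, Eda2r from 2.61 to 4.08 and Trp53inp1 from 0.30 to 1.26. For δKO against WT, Phlda3 ranged from -5.84 to -1.81, Eda2r from -2.24 to -0.67, Trp53inp1 from -1.24 to -0.28 and Ei24 from -0.92 to -0.32. With at most 127 reads per library, the 95% intervals of Phlda3 and Eda2r reached beyond 4-fold in each comparison.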
